A study of Caenorhabditis elegans with 15 samples.

Results

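The transcriptome described here is that of total RNA from whole Caenorhabditis elegans of strain KX155, grown for 3 days at 20 °C. It was defined as every gene with at least 1 TPM (a measure of transcript abundance that is corrected for length and has the same sum in each library) in all 3 total RNA libraries. Of the 46934 gene IDs in the deposited table, 9164 met this rule, or 19.5%. The 3 libraries are biological replicates per the labels and belong to a set of 15 libraries in 5 groups of 3. In KX155, CRISPR tags sit on a pair of eIF4E genes (mKate::ife-1 on III and GFP::ife-3 on V), and the total RNA is labelled as lysate. The labels' protocols describe both an aliquot of the unenriched homogenate and RNA isolated from the same frozen worms, and do not state which the libraries hold or whether equal replicate numbers mark the same worms. From the same strain came IFE-1 RIP (RNA bound to mKate::IFE-1 on RFP trap beads) and IFE-3 RIP (RNA bound to GFP::IFE-3 on GFP trap beads). Strain LP307 (mKate::PH, inserted on Chr II) gave mKate control RIP and strain LP306 (GFP::PH, inserted on Chr II) gave GFP control RIP, likewise after 3 days at 20 °C. Total RNA was measured only in the doubly tagged strain, and the labels give neither the sex nor the developmental stage of the worms.

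Total RNA of a whole worm pools the transcripts of every tissue, so a gene's level depends on how many cells express it as well as on how much RNA each cell holds, and these cannot be told apart in such libraries. In adult hermaphrodites the germline makes up a large part of the animal and contributes many maternal transcripts, while muscle, intestine, epidermis and neurons contribute the somatic ones. At the start of translation eIF4E proteins recognise the mRNA cap, and total RNA is the reference against which RNA bound to IFE-1 or IFE-3 is read in this study. The libraries were depleted of rRNA rather than selected for poly(A), per the labels' protocols, so RNAs without a cap or a poly(A) tail could also be sequenced.

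WormBase IDs are the only gene names in the deposited table. In the reference gene table used here, 0 of 46926 genes carried such an ID, so symbols, gene classes, chromosomes and sequences are not given. For this reason the abundant classes could not be named, germline genes could not be set against somatic ones, and neither the tagged genes nor the tissue's marker genes could be checked. The genes are therefore described by level, by spread and by comparison with the trap libraries, and single genes are named by ID only.

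Detection was similar in the 3 replicates. Total RNA replicates 1, 2 and 3 held 10536, 10066 and 10658 genes with at least 1 TPM. A further 2738 genes reached 1 TPM in only 1 library (1708 genes) or in only 2 (1030 genes), and together they held 0.334 ± 0.00900% of the TPM (SD, n = 3). The 9164 genes of the transcriptome held 99.5% of the TPM in each replicate. Of the rest of the table, 26061 IDs stood at 0 TPM in each of the total RNA libraries. Near the threshold the genes inside and outside it differed little. The 260 genes whose lowest library lay between 1 and 1.1 TPM had a median of their mean levels of 1.32 TPM, and the 283 genes whose lowest library lay between 0.9 and 1 TPM had one of 1.17 TPM.

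Most genes of the transcriptome were of low abundance. Their mean level over the 3 replicates had a median of 5.40 TPM, with quartiles at 2.82 and 12.01 TPM and a 90th percentile of 35.7 TPM. In the range from 1 to 10 TPM lay 1229 genes between 1 and 2 TPM, 3096 between 2 and 5 and 2125 between 5 and 10. Higher up were 1659 genes between 10 and 30 TPM, 649 between 30 and 100, 371 between 100 and 1000 and 35 above 1000. The 35 highest genes held 79.4% of the TPM and the 371 below them 11.2%, whereas the 3096 genes between 2 and 5 TPM held 1.03%.

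**Figure D1:**
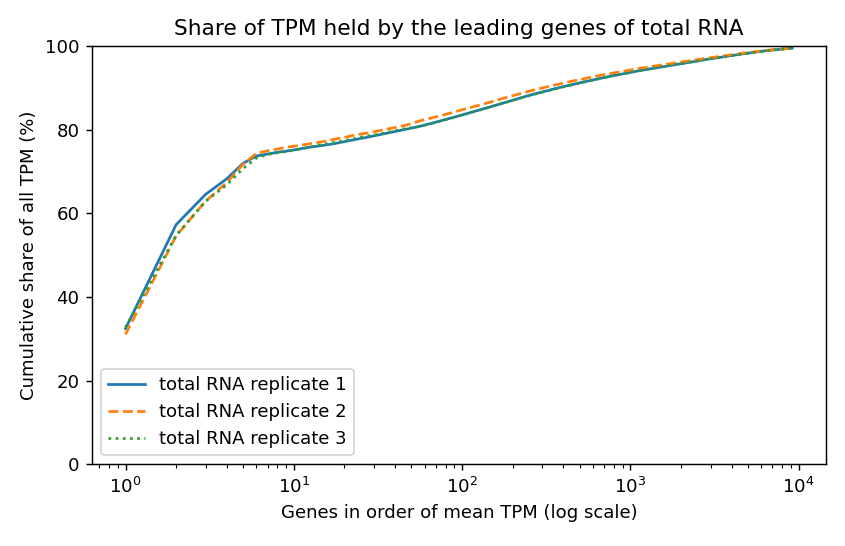
Cumulative share of all TPM (vertical axis, percent) over the genes of total RNA placed in order of their mean TPM (horizontal axis, log scale), with a line for each of the 3 total RNA libraries. The lines lie close together and bend after the 6 leading genes, which hold 73.7% of the TPM on average.

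A small number of genes dominated total RNA. WBGene00004622 alone held 32.4%, 31.04% and 32.7% of the TPM in replicates 1, 2 and 3. WBGene00004677 was next, with 24.9%, 23.6% and 21.98%. The order of these 2 genes was the same in every replicate, and their levels did not overlap. The gene at rank 3 held 7.26%, 8.33% and 8.20%. The genes at ranks 4 and 5 had identical values in every library of the series, 3.70%, 4.39% and 3.89% each, and the gene at rank 6 held 1.74%, 2.61% and 2.51%. Together the 6 genes took 73.7%, 74.3% and 73.2% of the TPM. Because these IDs were not paired with a gene class, their share cannot be assigned here to any class of RNA that the depletion step was meant to remove.

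Below the 6 leading genes the TPM was spread much more evenly. The remaining genes held 26.3 ± 0.566% of the TPM (SD, n = 3). Within that remainder the next 10 genes held 11.7 ± 1.28%, the next 100 held 39.7 ± 1.65% and the next 500 held 67.6 ± 1.34% (SD, n = 3 each), each count starting at rank 7. It took 176 genes to reach 50% of the remainder. Replicate 1 was the lowest in the share of the next 10 genes, at 10.3%, against 11.8% in replicate 2 and 12.9% in replicate 3.

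Some genes could not be told apart by their values. Within the transcriptome 113 genes in 44 sets had values identical in all 15 libraries, and the largest set held 11 genes. Their sequences were not compared, and the level of each is taken as uncertain. These genes held 11.2 ± 0.901% of the TPM in total RNA, and the 111 of them outside the 6 leading genes held 3.20 ± 0.230% (SD, n = 3 each). Of the 20 highest genes, 6 belonged to such a set.

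The spread between replicates was small for most genes. For this comparison each library was divided by its median ratio to the geometric mean of the 3 libraries, with factors of 1.04, 0.932 and 1.04 for replicates 1, 2 and 3. Over the 9164 genes the coefficient of variation (CV, the SD as a percent of the mean over the 3 libraries) had a median of 10.9% and quartiles at 6.53% and 17.9%. In 7474 genes (81.6%) the highest replicate was less than 1.5 times the lowest, and in 503 genes (5.49%) it was at least 2 times the lowest. Replicates 2 and 3 were the least alike, with a median absolute log2 difference of 0.16 between their genes, against 0.14 for replicates 1 and 2 and for replicates 1 and 3. Spearman's rho across the 9164 genes was 0.963 between replicates 1 and 2, 0.967 between 1 and 3 and 0.958 between 2 and 3. These values describe the libraries, since genes are not independent replicates and the rule had removed the low genes.

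The spread depended on the level of the gene. The median CV was 14.9% for genes between 1 and 2 TPM, 13.04% between 2 and 5 TPM and 9.75% between 5 and 10 TPM. It was 8.67% between 10 and 30 TPM, 8.64% between 30 and 100 TPM and 6.92% between 100 and 1000 TPM, the lowest of the 7 ranges. Above 1000 TPM it was 9.39%, with an upper quartile of 20.6%, and 0 of the 35 genes there had a 2-fold range. Differences of at least 2-fold were most frequent between 2 and 5 TPM, with 261 of 3096 genes (8.43%), beside 76 of 1229 (6.18%) between 1 and 2 TPM, where the minimum of 1 TPM in every library leaves little room for such a range. TPM keeps no sequencing depth, and the part of read sampling in the spread of low genes was not tested.

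**Figure D2:**
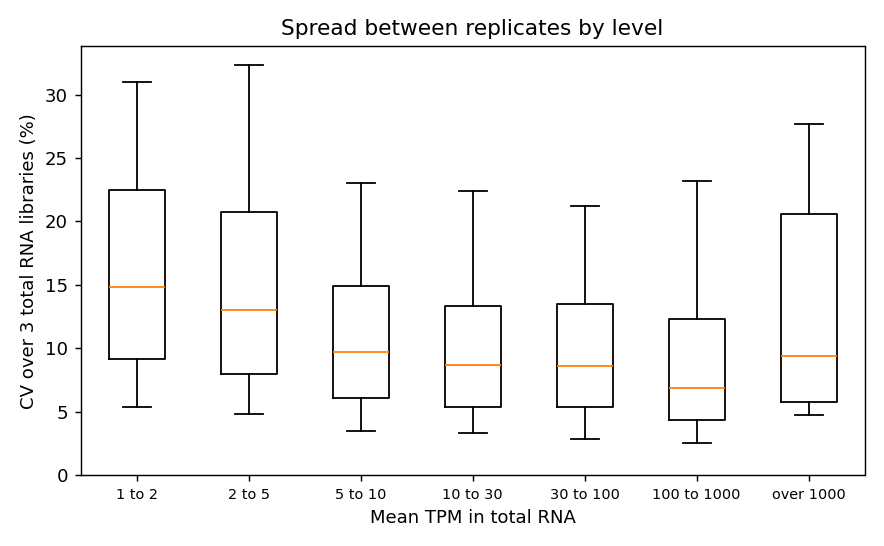
Coefficient of variation over the 3 total RNA libraries (vertical axis, percent, scaled TPM) for genes grouped by mean TPM (horizontal axis), with the median as the line, the quartiles as the box and the 10th and 90th percentiles as whiskers. The median is 14.9% for genes between 1 and 2 TPM, 6.92% between 100 and 1000 TPM and 9.39% above 1000 TPM.

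The genes that varied most had their extremes in all 3 replicates. Among the 503 genes with a 2-fold range the highest value was in replicate 1 for 107, in replicate 2 for 176 and in replicate 3 for 220. The lowest value was in replicate 1 for 180, in replicate 2 for 184 and in replicate 3 for 139. Where the mean was 10 scaled TPM or more (2705 genes), 88 genes (3.25%) had a 2-fold range and 627 (23.2%) had a CV under 5%. By the SD of log2(scaled TPM + 1), which sets the order here and differs from an order by CV, the largest spread of these belonged to WBGene00014366, which shares its values with 1 other gene. It stood at 242, 148 and 20.7 scaled TPM in replicates 1, 2 and 3. Replicate 3 was thus far below the others for this gene. WBGene00000691, next by the same SD among genes with values of their own, stood at 23.4, 2.63 and 20.3 scaled TPM, so here replicate 2 was the low one. In the traps, with TPM as deposited rather than scaled, WBGene00000691 ranged from 11.9 to 22.98 TPM in IFE-1 RIP and from 3.29 to 21.9 TPM in IFE-3 RIP. On the same deposited scale it ranged from 8.22 to 16.6 TPM in mKate control RIP and from 50.9 to 144 TPM in GFP control RIP.

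The same 9164 genes spread more in the other groups. The median SD of log2(scaled TPM + 1), with each group scaled by its own factors, was 0.13 in total RNA. IFE-1 RIP had 0.16 and IFE-3 RIP 0.18, while mKate control RIP had 0.21 and GFP control RIP 0.38. The SD was lower in total RNA than in IFE-1 RIP for 62.1% of the genes, and lower than in GFP control RIP for 88.6%. The genes were chosen for steady detection in total RNA, so these shares are a description and the difference was not tested.

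Nearly all genes of the transcriptome were also detected in the traps. Of the 9164 genes, 9031 had at least 1 TPM in all 3 IFE-1 RIP libraries, which is 98.5% of them and 87.7% of the 10302 genes that met the rule there. For IFE-3 RIP the number was 8987, or 98.1% of the transcriptome and 89.4% of 10050 genes. The control RIPs shared 8951 genes (mKate control RIP, 97.7% of the transcriptome and 84.2% of 10634 genes) and 8752 genes (GFP control RIP, 95.5% and 84.1% of 10412 genes). In all 5 groups 8537 genes met the rule, and these held 99.2 ± 0.0277% of the TPM in total RNA (SD, n = 3). Only 2 genes of the transcriptome were under 1 TPM in all 12 trap libraries. Both had the same mean of 1.38 TPM in total RNA, so they may be genes that cannot be told apart by their values. Against the 6 IFE RIP libraries alone, 4 genes of the transcriptome were under 1 TPM in all of them. In the opposite direction, 89 genes were under 1 TPM in all total RNA libraries and at or above it in all 6 IFE RIP libraries. Counted for each trap group by itself, such genes numbered 246 (IFE-1 RIP), 220 (IFE-3 RIP), 572 (mKate control RIP) and 575 (GFP control RIP). Detection in a trap but not in total RNA was therefore not particular to the IFE RIPs. These counts use TPM as deposited. On that scale the genes tested below stood lower in total RNA than in the IFE RIPs, with a median log2 difference of -0.25.

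The leading genes took a larger share of total RNA than of the IFE RIPs. The 6 genes with 73.7%, 74.3% and 73.2% of the TPM in total RNA held 65.7%, 69.6% and 59.1% in IFE-1 RIP and 58.4%, 61.1% and 58.5% in IFE-3 RIP. The mKate control RIP had 71.5 ± 2.25% and the GFP control RIP 64.3 ± 7.46% in these genes (SD, n = 3 each). Replicate 1 of the mKate control RIP, at 73.3%, lay above total RNA replicate 3, so the control RIPs were not all below total RNA. Every total RNA library lay above every library of the IFE RIPs in this share, but the 6 genes were chosen as the highest of total RNA, which tilts their sum towards it. The 6 genes did not move together. WBGene00004622 held 32.1 ± 0.904% in total RNA, against 23.9 ± 1.86% for IFE-1 RIP and 23.9 ± 1.49% for IFE-3 RIP (SD, n = 3 each). The gene at rank 3 went the other way, with 7.93 ± 0.584% in total RNA, against 13.8 ± 3.40% for IFE-1 RIP and 11.8 ± 1.91% for IFE-3 RIP (SD, n = 3 each). The control RIPs had the gene at rank 3 at 14.5 ± 1.58% (mKate) and 14.0 ± 7.08% (GFP), with 1 GFP control library at 6.22%, below all total RNA libraries (SD, n = 3 each).

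**Figure D3:**
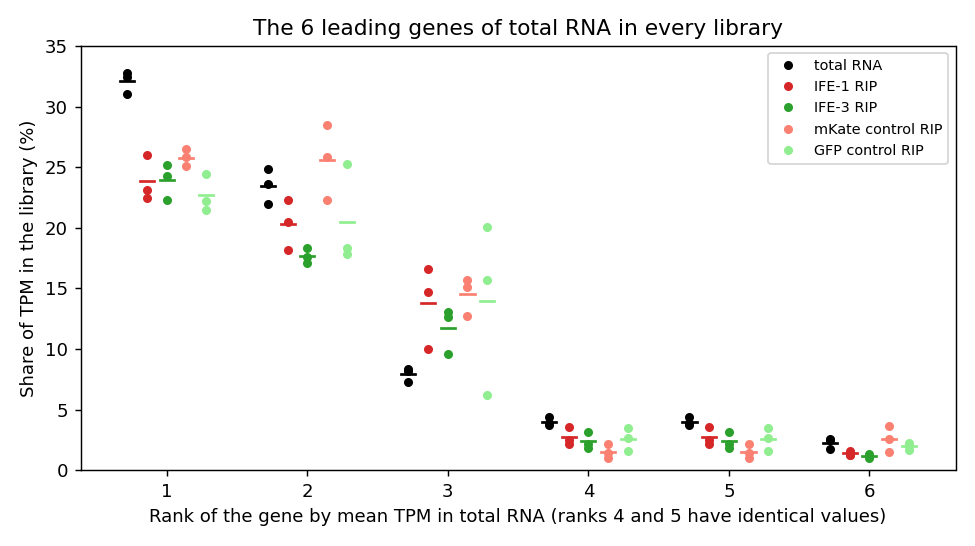
Share of the library's TPM (vertical axis, percent) for the 6 genes with the highest mean TPM in total RNA (horizontal axis, by rank), with a point for each of the 15 libraries and a short line at each group's mean. The gene at rank 1 lies between 31.04% and 32.7% in total RNA, above all 12 trap libraries, and the gene at rank 3 lies lower in total RNA than in every IFE RIP library.

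To show where total RNA differed from RNA held by the tagged proteins, its 3 libraries were compared gene by gene with the mean of IFE-1 RIP and IFE-3 RIP. The 9 libraries were scaled by median ratios and tested with limma on log2(scaled TPM + 1) over 12099 genes, two-sided, with an adjusted p under 0.05 as the threshold. Of the 9164 genes of the transcriptome, 872 were higher in total RNA and 497 were lower. A gene whose total RNA level lies between its levels in the IFE RIPs can escape a call, since their mean may lie near it. WBGene00001932, at rank 10, was such a gene and was not called (limma adjusted p = 0.386). Its scaled TPM spanned 1544 to 2827 (IFE-1 RIP), 3506 to 3837 (total RNA) and 6562 to 13071.5 (IFE-3 RIP). Genes without a call may thus differ from either RIP alone, which was not tested. Over all genes tested, 7.21% were called higher and 5.12% lower, which is 12.3% in either direction. The transcriptome was chosen by its level in total RNA, which enters this comparison, so its counts are not read against that background. Of the 2935 genes tested outside it, each under 1 TPM in at least 1 total RNA library, 0 were called higher with limma. In that direction 16 of them had an unadjusted limma p under 0.05. The test took genes with 1 TPM in 3 or more of the 9 libraries, so each of these reached it in at least 1 IFE RIP library. With the pseudocount of 1, this selection left little room for higher calls, and nothing is concluded from the 0. The 619 genes called lower lie inside and outside the transcriptome. The 5.12% therefore includes genes that entered the test through their level in the IFE RIPs. Lysate and pull-down coincide with the groups, so handling and eIF4E binding cannot be told apart.

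Most of the called differences were modest in size. The median log2 fold change, total RNA over the mean of the IFE RIPs, was 0.51 for the set of 872 and -0.69 for the set of 497, beside 0.03 over all genes of the transcriptome and -0.02 over all genes tested. A difference of at least 2-fold was reached by 41 of the higher genes (4.70%) and by 22.5% of the lower ones. The higher genes included those at ranks 1, 4, 5 and 6. As a set the higher genes held 48.3 ± 0.915% of the TPM in total RNA, while IFE-1 RIP had 34.2 ± 2.09% and IFE-3 RIP 33.3 ± 2.98% (SD, n = 3 each). Most of each share belonged to the gene at rank 1 alone, with 32.1% in total RNA and 23.9% in either IFE RIP. The genes at ranks 4 and 5 added 3.99% each in total RNA and the gene at rank 6 added 2.29%. These shares therefore say little about the other genes of the set. The lower genes held 3.17 ± 0.164% in total RNA, while IFE-1 RIP had 10.3 ± 2.00% and IFE-3 RIP 9.12 ± 0.451% (SD, n = 3 each). In the control RIPs the same sets held 34.9 ± 0.274% and 6.55 ± 0.806% (mKate) and 33.98 ± 1.69% and 7.20 ± 1.90% (GFP; SD, n = 3 each). The total RNA libraries chose these sets, so the shares describe them and support nothing further.

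Calls in both directions were more frequent among abundant genes. With levels taken as the mean over the 9 libraries, 2.44% of the 778 genes under 2 scaled TPM were higher in total RNA and 0.386% were lower. Between 10 and 30 scaled TPM, 15.1% of 1905 genes were higher and 6.61% were lower. Between 100 and 1000 scaled TPM, 17.3% of 417 genes were higher and 18.2% were lower, and above 1000 scaled TPM 9 of 54 genes were higher and 16 lower. Fold changes had a median on the log2 scale of 0.04 between 10 and 30 scaled TPM and -0.37 above 1000. The mean over the 9 libraries counts more IFE RIP libraries than total RNA libraries, so genes high in the IFE RIPs move to higher levels. At the low end the rule of 1 TPM in every total RNA library leaves little room for lower calls. The values by level are therefore a description, and the part of these choices in them was not tested. The added pseudocount of 1 understates the fold change of genes at the low end.

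**Figure D4:**
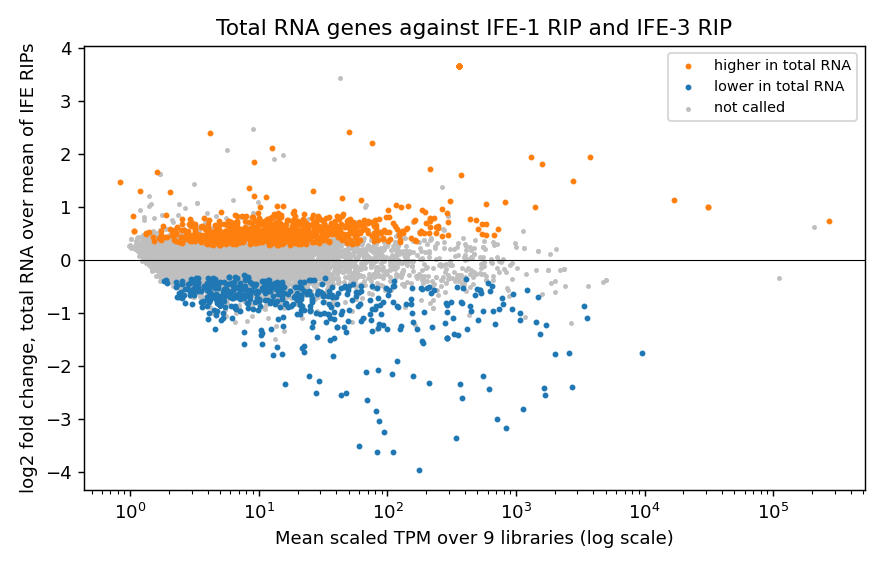
log2 fold change of total RNA over the mean of IFE-1 RIP and IFE-3 RIP (vertical axis) against the mean scaled TPM over the 9 libraries (horizontal axis, log scale), with a point for each of the 9164 genes of the transcriptome. The 872 higher genes are orange, the 497 lower ones blue and genes that were not called grey; the lower genes reach -3.97 and the higher ones 3.66.

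Genes at the extremes of this comparison differed far more than the median called gene. WBGene00014621, which stands for the set of 11 genes with identical values, had 895, 1496 and 660 scaled TPM in total RNA replicates 1, 2 and 3. The IFE RIPs held far less, with 49.8, 55.5 and 197 in IFE-1 RIP and 19.6, 82.4 and 195 in IFE-3 RIP. The log2 fold change was 3.66 ± 0.70 (SE), at an adjusted p of 0.0116 by limma. It was the largest increase in total RNA among the called genes that met the level set for naming. The control RIPs were also low for WBGene00014621, at 37.1 ± 29.2 (mKate) and 15.5 ± 7.92 (GFP; SD, n = 3 each). Low values were thus not particular to the IFE RIPs, and replicate 3 was the highest in each RIP.

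WBGene00235160 had 106, 137 and 98.7 scaled TPM in total RNA, against 10.9, 18.9 and 82.1 in IFE-1 RIP and 9.45, 12.99 and 30.996 in IFE-3 RIP. It was higher by 2.41 ± 0.57 (SE) on the log2 scale at an adjusted p of 0.0282 by limma, and replicate 3 was the highest in each RIP. The control RIPs stood at 10.6 ± 6.00 (mKate) and 9.96 ± 8.77 (GFP; SD, n = 3 each).

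Among the lower genes, WBGene00045370 had 11.7, 12.1 and 33.8 scaled TPM in total RNA, against 381, 237 and 278 in IFE-1 RIP and 248, 298 and 268 in IFE-3 RIP. Even the highest total RNA library was below all IFE RIP libraries by a wide margin (log2 difference of -3.97 ± 0.31 SE, adjusted p = 0.000554 by limma). The mKate control RIP stood between, at 144 ± 35.7, and the GFP control RIP lay nearer to total RNA, at 36.3 ± 19.6 (SD, n = 3 each). WBGene00044968 had 10.7, 4.44 and 13.6 scaled TPM in total RNA, against 218, 100 and 103 in IFE-1 RIP and 190, 139 and 52.1 in IFE-3 RIP (log2 difference of -3.63 ± 0.47 SE, adjusted p = 0.00292 by limma). Its control RIPs stood at 62.2 ± 9.97 (mKate) and 22.96 ± 11.9 (GFP; SD, n = 3 each), and every trap library lay above the total RNA libraries.

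Of the leading genes, WBGene00004622 was higher in total RNA by 0.74 ± 0.19 SE on the log2 scale (limma adjusted p = 0.0371), and WBGene00004677 missed the threshold with 0.62 ± 0.19 SE (limma adjusted p = 0.0671). The call of WBGene00004677 was gained in 3 of 19 other fits, those with a pseudocount of 5, a filter at 5 TPM or no mean-variance trend (limma adjusted p from 0.0185 to 0.0210). The gene at rank 3 had -0.35 ± 0.24 SE (limma adjusted p = 0.388). For the gene at rank 3 the scaled values of total RNA and the IFE RIPs overlapped, although its shares of the TPM did not. The genes at ranks 4 to 6 were called higher in total RNA, with 0.99 ± 0.23 SE for ranks 4 and 5 (limma adjusted p = 0.0256) and 1.13 ± 0.23 SE for rank 6 (limma adjusted p = 0.0155).

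The direction of the calls depended on scaling, and their number on scaling and on single libraries. Without library factors, on the deposited TPM, the median log2 fold change of the tested genes was -0.25. Of 2560 calls 2341 were then lower in total RNA and 8.55% were higher, whereas 58.5% were higher with scaled libraries. With TPM rescaled without the 6 leading genes the median moved to 0.16, and 1773 genes were higher and 365 lower, or 82.9% higher. Over all genes tested 1491 were called, and the count was 628, 676 and 971 without total RNA replicates 1, 2 and 3 and 971 without IFE-3 RIP replicate 2. With any 1 of the 9 libraries left out, between 52.7% and 63.7% of the calls were higher in total RNA. The call of WBGene00004622 was lost in 13 of 19 other fits and that of WBGene00235160 in 8 of 20, while that of WBGene00014621 was lost in 2 of 20, without total RNA replicate 1 (limma adjusted p = 0.0508) or replicate 2 (0.0571). The calls of WBGene00045370 and WBGene00044968 held in all 20.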

How the data were processed

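The kit, per the labels' protocols, removed rRNA and did not mark the strand, so reads of a gene and an overlapping antisense gene cannot be told apart. Expression was deposited as TPM per gene. The submitters' processing notes list the build WBcel235 and kallisto 0.48.0, R 4.4.1 and DESeq2 1.34.0 without saying what each was used for. The annotation and any read filter were not stated there. Sequencing depth is lost in TPM, so depth is unknown and no counting interval, detection floor or count-based test is given.

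Levels and shares use TPM as deposited. Spread uses TPM divided by median-ratio factors over the 3 total RNA libraries. Tests used factors over 9 libraries, a minimum of 1 TPM in 3 or more of them, log2(scaled TPM + 1), and limma 3.58.1 in R 4.3.3 (lmFit, eBayes with trend), with two-sided p-values adjusted by Benjamini-Hochberg over all genes tested. The test script was run on simulated data with independent noise and changes of at least 2-fold planted in abundant genes only. The outcome is not given here, and smaller changes and changes in low genes were not simulated. Scaled values of single genes in that comparison use factors over all 15 libraries. Summaries and figures were made in Python 3.11.15.

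The threshold for the transcriptome and the gene lists were chosen with earlier results of these data known. Gene lists, markers, classes, the always-named genes and protein-coding rescaling need symbols or biotypes and were not applied. The naming rule kept its other parts: for differences, a called gene, no overlap between groups, 10 or more scaled TPM on average in the higher group, and rank by fold change. No more than 2 IDs per direction were taken. Keeping to genes of the transcriptome and counting identical genes once were chosen after the values were seen.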

Additional observations from a re-analysis of the deposited data

How the results depend on the processing

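The transcriptome held 4340 genes at 5 TPM and 2420 at 10 TPM, 10913 at 0.5 TPM and 10194 with 1 TPM in at least 2 libraries, and between 9378 and 9714 genes with a replicate left out. The share of the 10 highest genes was 75.4%, between 75.1% and 75.6% with a replicate left out, and 76.3% with identical genes counted once (chosen after the data were seen). The median SD of log2 values was 0.128, and it was 0.137 with TPM as deposited, 0.154 with a pseudocount of 0.1, 0.0777 with a pseudocount of 5 and between 0.100 and 0.112 with a replicate left out. The count of 1491 genes differing between total RNA and the IFE RIPs was 2560 with TPM as deposited, 433 with all 15 libraries in a single fit, 2933 with library weights, whose estimation stopped short of convergence, and between 628 and 1569 with a library left out. The cause of these shifts was not tested. It stayed within 1.5 times with quantile normalization (1735), no filter on low values (1073), a filter at 5 TPM (1498), no mean-variance trend (1390), pseudocounts of 0.1 (1518) and 5 (1413), rescaling without the 6 leading genes (2138) and identical genes counted once (1465); the last pair was chosen after the data were seen.

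The replicate number as a block gave 2383 calls, 1347 higher and 1036 lower in total RNA, and 1470 of the 1491 were among them. Deviations of same-numbered libraries correlated by 0.0350 to 0.124 between total RNA and IFE-1 RIP and by 0.0602 to 0.128 between total RNA and IFE-3 RIP, so not every pair passed 0.1 and the numbers were not taken to pair the libraries. Each total RNA library correlated best with its own number in both RIPs, while 2 of 3 IFE-1 RIP libraries and 3 of 3 IFE-3 RIP libraries did so with total RNA. Libraries of unlike number correlated by -0.118 to 0.0589. These values are a hint of pairing from the data, which the labels do not state. Deviations cancel out within each group, so a positive value for a pair pulls the values of unlike number down, which weakens the hint. IFE-1 RIP and IFE-3 RIP were not compared with each other in this way, and the main fit treated all 9 libraries as independent.

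The calls of the 4 genes named for their difference held in 70 of 80 combinations of gene and fit and were lost in 10, with 0 changes of sign. These genes were chosen for the largest fold changes of the main fit, and the fits share libraries. The tally therefore says nothing about other called genes, and WBGene00004622, which is not in it, lost its call in 13 of 19 fits. Quantile normalization sets the 2 highest genes to the same value in every library, so it yields no difference for WBGene00004622 and WBGene00004677. Shares and scalings based on protein-coding genes and the summaries of gene lists were not run. Depth is unknown, so what it limits among low genes could not be measured.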

Other observations

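Of the 2738 genes that reached 1 TPM in only some of the total RNA libraries, 1213 were listed at 0 in at least 1 of the 3. Their mean levels had a median of 0.969 TPM, and 8 of them had a mean of at least 10 TPM, the highest at 167 TPM. Of these 8 genes, 6 were listed at 0 in a library.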
